A study of Mus musculus with 14 samples.

Results

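The phagocyte NADPH oxidase was followed here through 6 genes, Cybb, Cyba, Ncf1, Ncf4, Rac2 and Hvcn1, taken by their symbols from the 14329 genes in the deposited values. All 6 passed the filter on low counts, which asked for 10 or more reads in 7 or more of the 14 libraries and left 12645 genes for testing. Expression was measured by RNA-seq of sorted spinal dorsal horn microglia, and the design asked how these cells respond to inflammatory arthritis with and without an amyloid background. Arthritis was brought on by serum of K/BxN mice, which carries arthritogenic autoantibodies (K/BxN ST), and control animals received serum of mice that do not develop arthritis (Control ST), both by intraperitoneal injection. All cells were taken on day 5 after the first serum from 6-month-old mice of both sexes, and the sex of each library is not in the labels. The WT groups were C57BL/6 mice, with 4 libraries after K/BxN ST and 3 after Control ST. The TASTPM groups, likewise 4 and 3, were heterozygous mice of a transgenic amyloid model that carries human APP with the Swedish mutation, with expression driven by the murine Thy-1 promoter, which targets neurons rather than the microglia measured here. Cells were sorted as CD45low CD11b+ CX3CR1+, 2000 per library, and the study's text also describes the gate on these cells as Ly6C- and CCR2-, which was meant to leave out classical monocytes. The study counts its replicates as individual mice, which the labels do not state, so p-values measure the spread between mice.

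The oxidase moves electrons from NADPH in the cytosol across a membrane to oxygen and so makes superoxide, the first product of the respiratory burst with which neutrophils, monocytes and macrophages kill microbes. Its catalytic core is a pair of membrane proteins that stabilize each other, and it stays silent until cytosolic subunits and a small GTPase dock onto it after the cell has been stimulated. In microglia the same enzyme is known as a source of oxidants in inflammation and in models of neurodegeneration and pain.

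The libraries held 14223015 to 20239175 reads on genes, and each member was read at least 186 times in every library. Of the 14 libraries 4 stood apart from the rest, WT K/BxN ST libraries 1 and 2 and TASTPM K/BxN ST replicates 1 and 2. In these, the summed normalized counts of 7 classical monocyte markers (Ly6c2, Ccr2, Plac8, Chil3, Vcan, Ms4a4c and Fn1) were 73541 to 138929, against 181 to 440.0 in the other 10 libraries. Of these markers, Ly6c2 and Ccr2 belong to the surface proteins that the gate was described as selecting against. The 10 neutrophil markers summed to 193514, 195741 and 217704 in 3 of them but to 3527 in WT K/BxN ST library 2, against 6.71 to 2753 elsewhere. The 10 microglia markers were present in every library but summed to 332236 to 792072 in the 4 and to 955389 to 1279770 in the 10. Border macrophage sums were also higher in the 4 (1226 to 3343 against 0 to 947). So were dendritic cell sums (743 to 7658 against 0.838 to 224). The B cell sums overlapped (621 to 894 against 691 to 1068), but they hold only Cd79a and Cd79b and are mostly Cd79b. Cd79a was at 244, 214, 127 and 21.3 in the 4 (TASTPM K/BxN ST replicates 1 and 2, then WT K/BxN ST libraries 1 and 2). In the 10 libraries Cd79a was at most 44.9. None of the 4 T and NK cell markers is in the deposited values. In bulk libraries of sorted cells, fewer cells of a type and less RNA per cell cannot be told apart. Results are therefore given with all 14 libraries and with the 10, and the part of these markers in the member results was not tested.

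Cybb encodes gp91phox (NOX2), the subunit that holds the electron path, and it varied most of the 6 genes. The gene lies on chrX:9301491-9354010 (minus strand, GRCm39). Its normalized counts, reads divided by 1 factor for each library, in WT after K/BxN ST were 28501, 21434, 588 and 1158 (libraries 1 to 4), against 174, 703 and 359 after Control ST. The first 2 K/BxN ST libraries are far above the rest, and K/BxN ST library 3 lies within the range of Control ST. In TASTPM, Cybb was at 25877, 12634, 715 and 582 in K/BxN ST replicates 1 to 4, against 482, 454 and 361 after Control ST. Here all 4 K/BxN ST libraries lie above all 3 Control ST libraries, as do those of 2.67% of the genes tested, and replicates 3 and 4 exceed Control ST by little beside replicates 1 and 2. Mean Cybb in WT was 12920 ± 14209 (SD, n = 4) with K/BxN ST and 412 ± 268 (SD, n = 3) with Control ST. In TASTPM the means were 9952 ± 12027 (SD, n = 4) and 432 ± 63.3 (SD, n = 3).

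The plot of the 6 genes by library shows these values beside those of the other members.

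**Figure D1:**
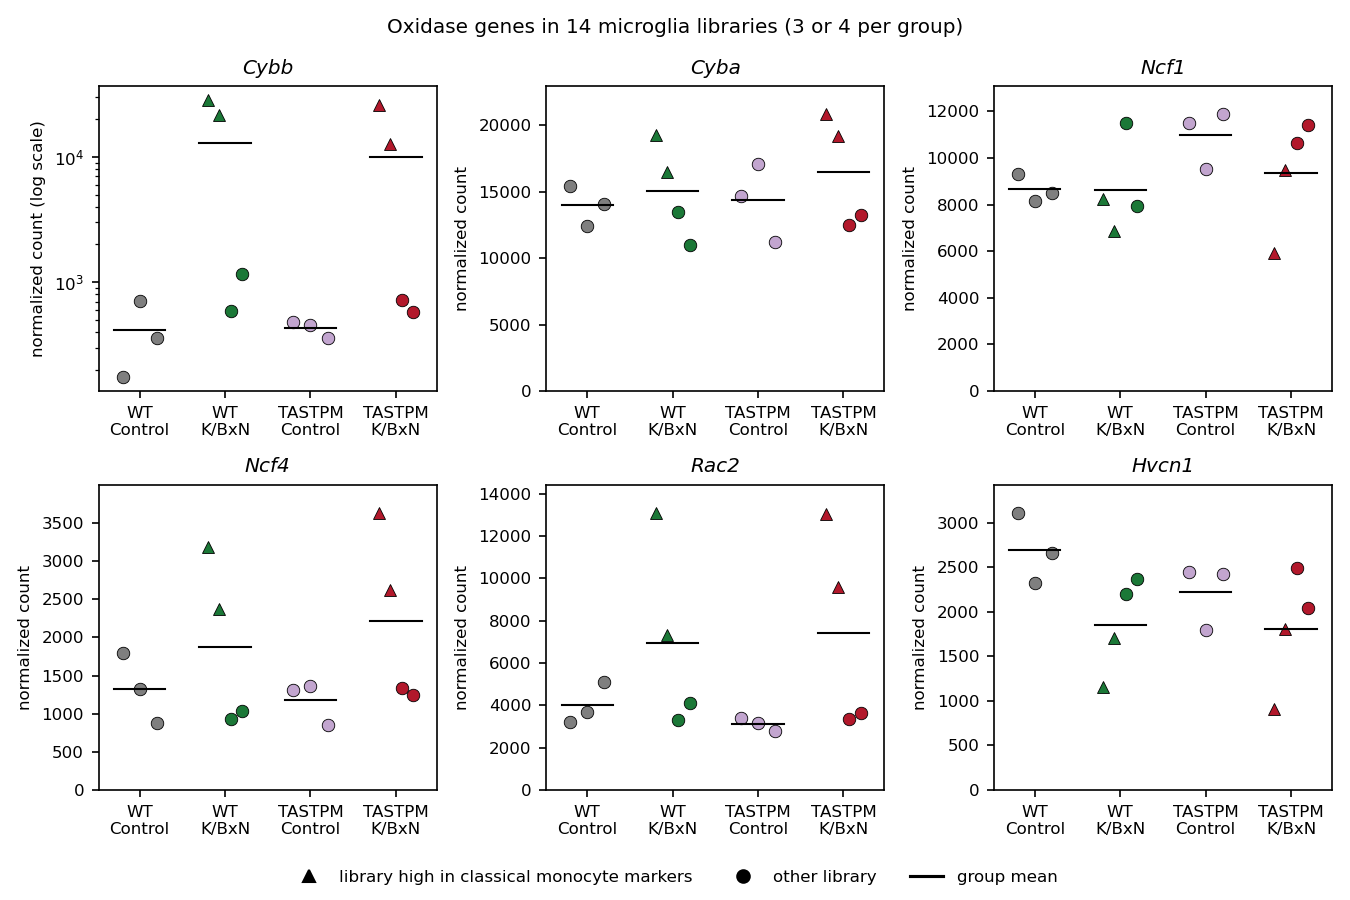
Normalized counts of the 6 oxidase genes (vertical axis, log scale for Cybb only) in each library of the 4 groups (horizontal axis). Triangles mark the 4 libraries high in classical monocyte markers, circles the other 10, and lines the group means; Cybb, Ncf4 and Rac2 are higher in every triangle than in any circle.

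On the log2(normalized count + 1) scale, on which folds of low genes are understated, Cybb was 3.67 higher after K/BxN ST in WT (SE 1.42), with an unadjusted p of 0.0212 and an adjusted p of 0.668 by limma with Benjamini-Hochberg adjustment over the 12645 genes. In TASTPM the difference was 2.99 (SE 1.42, limma adjusted p = 0.964). Neither difference passed the threshold, an adjusted p below 0.05 with a log2 fold change above 1 in size. DESeq2 on the recovered reads called Cybb in WT (log2 fold change 4.98, adjusted p = 0.0215), 1 of the 127 genes (1.00%) that it called there. DESeq2 did not call it in TASTPM (4.53, adjusted p = 0.148), where it called 0.142% of all genes, and edgeR called it in neither genotype (adjusted p = 0.646 and 0.996), as it called 0.00% of all genes. Two-sided exact permutation tests gave p = 0.143 in WT and p = 0.171 in TASTPM, where the smallest possible value is 0.0286. The response did not differ detectably between the genotypes, with an interaction of -0.68 (SE 2.01, 95% interval -4.98 to 3.62, limma adjusted p = 0.999), and limma called 0.00% of all genes for it. The interval leaves room for a difference of many fold in either direction.

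Without the 4 libraries high in monocyte markers, the Cybb difference was 1.22 in WT (SE 0.53, unadjusted p = 0.0403, limma adjusted p = 1) and 0.59 in TASTPM (SE 0.53, limma adjusted p = 0.996). At an unadjusted p below 0.05, 4.25% of all genes passed in that fit in WT. The WT difference sets only K/BxN ST libraries 3 and 4 (588 and 1158) against Control ST (174, 703 and 359). Libraries were left out by monocyte markers only. Among those kept, the neutrophil sum was 1250 in WT K/BxN ST library 4, 2753 in WT Control ST library 3, and 6.71 to 205 in the rest. The 10 libraries hold Cybb at 174 to 1158 and Ly6c2, a defining gene of classical monocytes, at 1.87 to 17.8. In the 4 libraries Cybb was at 12634 to 28501 and Ly6c2 at 12898 to 29133. In WT K/BxN ST library 2, where Cybb was at 21434, the neutrophil genes Ly6g and Ngp were at 0 and 32.8, but Mmp8, a collagenase of neutrophil granules, was at 3245, against at most 60.0 in the 10 libraries, and made up most of the neutrophil sum there. In the other 3 of the 4 libraries Ly6g was at 440 to 868.

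Cybb is known to be driven in myeloid cells by the ETS factor PU.1 together with interferon regulatory factors. The reference promoters (RefSeq, GRCm38.p6, 250 bases before to 50 after the start) of Cybb and its partner Cyba are shown as a description. Whether they bear on how these genes vary was not tested. Promoters of 3 of the 6 members were matched, those of Cybb, Cyba and Ncf1. GAGGAA, a core of PU.1 sites, was searched on both strands, and capitals mark where it matched. The Cybb window, chrX:9469275-9469574 (minus strand), held 1 match, on the complement, beginning at base 10 of the transcript. The Cyba window, chr8:122432891-122433190 (minus strand), held none.

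Cybb: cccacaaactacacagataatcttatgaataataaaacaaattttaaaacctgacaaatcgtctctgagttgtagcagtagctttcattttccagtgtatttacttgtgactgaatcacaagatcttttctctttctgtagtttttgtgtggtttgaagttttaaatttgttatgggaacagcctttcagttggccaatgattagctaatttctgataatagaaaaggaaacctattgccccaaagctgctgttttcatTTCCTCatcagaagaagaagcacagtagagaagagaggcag
Cyba: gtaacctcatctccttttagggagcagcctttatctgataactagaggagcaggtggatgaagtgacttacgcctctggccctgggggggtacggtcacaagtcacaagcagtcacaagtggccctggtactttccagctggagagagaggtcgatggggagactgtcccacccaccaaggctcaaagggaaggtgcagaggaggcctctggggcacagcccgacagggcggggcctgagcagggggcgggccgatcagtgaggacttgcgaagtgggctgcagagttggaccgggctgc

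GAGGAA is found in 28.3% of the 32851 promoters of this length. The Ncf1 window, chr5:134229576-134229875 (minus strand), held none. A match of letters is a description of the window and not a bound site.

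Cyba encodes p22phox, the membrane partner without which gp91phox is unstable, and it was abundant in every library. The gene is on chr8:123150422-123159706 (minus strand, GRCm39). WT mice had normalized counts of 19303, 16481, 13481 and 11016 with K/BxN ST, against 15464, 12465 and 14081 with Control ST. TASTPM mice had 20886, 19195, 12521 and 13261 with K/BxN ST, against 14702, 17132 and 11228 with Control ST. The groups overlap in both genotypes, and the full range over 14 libraries was 1.90-fold, against 163-fold for Cybb. The log2 difference was 0.08 in WT (SE 0.24, 95% interval -0.44 to 0.60, limma adjusted p = 0.945) and 0.18 in TASTPM (SE 0.24, 95% interval -0.34 to 0.71, limma adjusted p = 0.966). With the 10 libraries it was -0.19 and -0.13, so the direction turned in both genotypes.

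Ncf1 encodes p47phox, the organizer that carries the cytosolic complex to the membrane once it is phosphorylated. It lies on chr5:134248907-134258479 (minus strand, GRCm39). In WT its normalized counts were 8224, 6887, 11487 and 7930 after K/BxN ST, against 9292, 8175 and 8514 after Control ST. In TASTPM they were 5943, 9472, 10625 and 11399 after K/BxN ST, against 11494, 9541 and 11900 after Control ST. The serum groups overlap in both genotypes, and the lowest value of all is in TASTPM K/BxN ST replicate 1. The log2 difference was -0.03 in WT (SE 0.23, limma adjusted p = 0.982) and -0.27 in TASTPM (SE 0.23, limma adjusted p = 0.964), and it was 0.14 and 0.01 with the 10 libraries. Scaling by library totals turned the WT value to 0.028.

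Under Control ST, all 3 TASTPM libraries had more Ncf1 than all 3 WT libraries, a pattern that 4.97% of the genes tested shared. The log2 difference was 0.34 (SE 0.25, limma adjusted p = 0.933), and the two-sided exact permutation test gave p = 0.100, the smallest that 3 against 3 libraries allow. No other member was separated between the genotypes, where 4.71% of all genes were lower under Control ST and 1.16% higher and 0.672% lower under K/BxN ST. The genotype differences of the 6 genes ran from -0.33 (Rac2) to 0.34 (Ncf1) under Control ST and from -0.40 (Cybb) to 0.28 (Ncf4) under K/BxN ST, and limma called none in either, as it called 0.00% of all genes. At an unadjusted p below 0.05 none of the 6 passed, against 5.57% of all genes under Control ST and 1.91% under K/BxN ST. edgeR called none of the 6 (0.00% of all genes in both), and DESeq2 none (0.324% and 0.00%). With the 10 libraries the genotype differences under K/BxN ST ran from -0.35 (Cybb) to 0.40 (Ncf4).

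Ncf4 encodes p40phox, the subunit that binds the phosphoinositide of phagosome membranes and sustains the oxidase there. It is on chr15:78128982-78146784 (plus strand, GRCm39). Normalized counts in WT after K/BxN ST were 3188, 2373, 932 and 1034, against 1792, 1319 and 877 after Control ST. In TASTPM after K/BxN ST they were 3635, 2621, 1339 and 1249, against 1314, 1366 and 850 after Control ST. The same 4 libraries that were high in Cybb are the highest here, and the remaining K/BxN ST libraries lie within the range of their Control ST group. The log2 difference was 0.37 in WT (SE 0.46, limma adjusted p = 0.852) and 0.79 in TASTPM (SE 0.46, limma adjusted p = 0.964). With the 10 libraries it was -0.38 (SE 0.32) and 0.17.

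Rac2 encodes the GTPase of blood cells that switches the assembled oxidase on. The gene is on chr15:78443367-78457429 (minus strand, GRCm39). WT libraries held 13094, 7339, 3294 and 4093 normalized counts with K/BxN ST, against 3207, 3663 and 5105 with Control ST. TASTPM libraries held 13053, 9566, 3366 and 3658 with K/BxN ST, against 3412, 3156 and 2807 with Control ST. Again the 4 libraries lead, and without them the serum groups overlap in both genotypes. The log2 difference was 0.62 in WT (SE 0.49, limma adjusted p = 0.787) and 1.01 in TASTPM (SE 0.49, limma adjusted p = 0.964), with two-sided exact permutation p = 0.343 and p = 0.2. With the 10 libraries it was -0.09 and 0.17.

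Hvcn1 encodes the voltage-gated proton channel that lets protons out to balance the charge moved by the oxidase, and its values were lowest where those of Cybb were highest. It is on chr5:122344867-122382736 (plus strand, GRCm39). In WT it was counted at 1155, 1708, 2201 and 2365 (normalized counts) after K/BxN ST, against 3113, 2326 and 2658 after Control ST. In TASTPM it was counted at 907, 1812, 2493 and 2039 after K/BxN ST, against 2442, 1795 and 2422 after Control ST. In WT, 3 of the 4 K/BxN ST libraries lie below all of Control ST, and the lowest 3 values of all are in libraries high in monocyte markers. The log2 difference was -0.58 in WT (SE 0.32, limma adjusted p = 0.731, two-sided exact permutation p = 0.143) and -0.37 in TASTPM (SE 0.32, limma adjusted p = 0.964). With the 10 libraries it was -0.23 (SE 0.22) and 0.04. Of its 5500 transcript bases 2609 overlap Tctn1 on the other strand, and the strand setting of the counting is not given in the sources used here, so reads of the pair may be mixed. Smaller overlaps touch Ncf1 (448 of 2721 bases, Gtf2ird2), Cybb (304 of 4759, Xk) and Rac2 (86 of 3484, Gm63166), and none touches Cyba or Ncf4.

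None of the 6 genes was called by limma for K/BxN ST, against 0.00791% of all genes in WT and 0.00% in TASTPM. At an unadjusted p below 0.05, 1 of 6 passed in WT (Cybb), where 7.13% of all genes did, and 0 of 6 in TASTPM, where 4.22% did. The median log2 difference of the 6 was 0.22 in WT and 0.49 in TASTPM, beside medians of 0.06 and 0.01 over all genes tested. With the 10 libraries the medians of the 6 were -0.14 and 0.10.

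**Figure D2:**
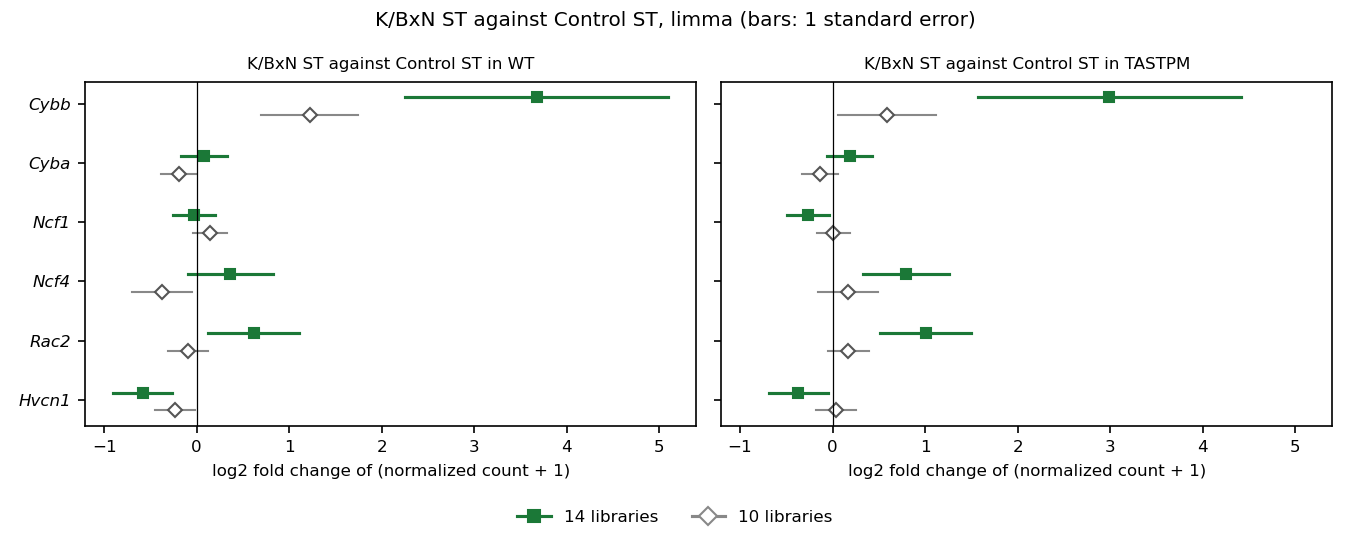
Log2 fold change of (normalized count + 1) for K/BxN ST against Control ST (horizontal axis) of the 6 genes (vertical axis) in WT (left) and TASTPM (right), as limma estimates with bars of 1 standard error. Squares are the fit of 14 libraries and diamonds that of the 10 without the monocyte-marker-high libraries; Cybb is at 3.67 against 1.22 in WT, and at 2.99 against 0.59 in TASTPM.

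Described by library rather than by serum, 3 of the 6 members (Cybb, Ncf4 and Rac2) were higher in all 4 libraries with high monocyte markers than in any of the other 10, as were 7.63% of the genes tested. The ratio of the median in the 4 to the median in the 10 was 44.5 for Cybb, 3.34 for Rac2 and 2.27 for Ncf4. For Cyba it was 1.44, with 3 of the 4 above all others. For Ncf1 it was 0.749, and for Hvcn1 0.598 with 3 of the 4 below all others, and no member lay wholly below, where 2.51% of all genes did. Every one of the 4 is a K/BxN ST library, so the serum and the marker level cannot be told apart in them, and these ratios are a description of libraries and not of a treatment.

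The plot against marker sums shows Cybb with the monocyte markers and Hvcn1 with the microglia markers.

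**Figure D3:**
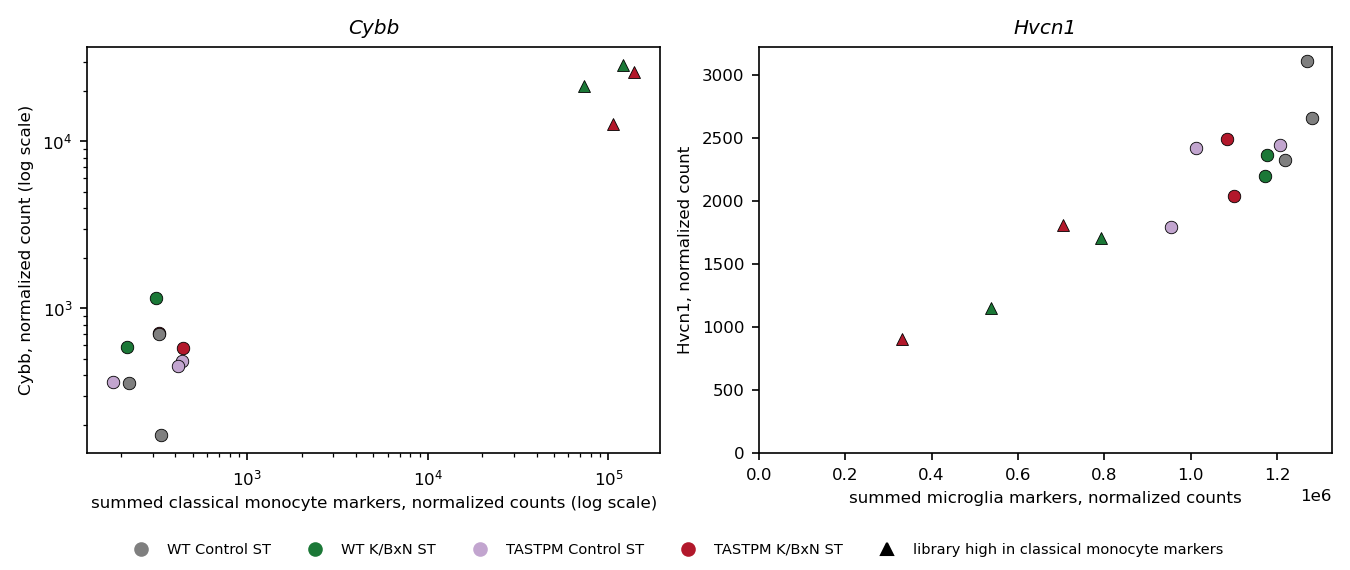
Normalized counts of Cybb against the summed classical monocyte markers (left, both axes on log scales) and of Hvcn1 against the summed microglia markers (right, linear axes), 1 point per library. Triangles are the 4 libraries high in monocyte markers, with Cybb at 12634 to 28501, and Hvcn1 is lowest in 3 of these 4 libraries, where the microglia sums are also lower.

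Among genes of related oxidase components, Rac1, the GTPase found in most cells, differed with K/BxN ST by 0.09 in WT (SE 0.17) and 0.07 in TASTPM (SE 0.17). Cybc1, which encodes a chaperone for the membrane core, differed by -0.22 (SE 0.19) and -0.15 (SE 0.19). Noxo1, an organizer of non-phagocyte oxidases, stayed at or below 15.2 and failed the filter. Nox1, Nox3, Nox4, Noxa1, Duox1 and Duox2 were not analysed here. Neither of the tested genes was called by limma (0.00791% of all genes in WT and 0.00% in TASTPM), edgeR (0.00% in both) or DESeq2 (1.00% and 0.142%).

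Levels of different genes were compared per kilobase of the canonical transcript. Of the transcript bases of Rac1, 2625 of 4183 overlap Daglb on the other strand, and of Cybc1 207 of 2428 overlap Hexd, so the Rac1 level and the Rac2 per Rac1 ratio may include reads of Daglb. In the 10 libraries the order of the median normalized counts per kb was Cyba (16861), Ncf1 (3706), Rac1 (3335), Cybc1 (2746), Rac2 (973), Ncf4 (864), Hvcn1 (435) and Cybb (112). Neighbours from Ncf1 to Rac1 (2914 to 4373 against 2972 to 3705), from Rac1 to Cybc1 (2038 to 3202) and from Rac2 to Ncf4 (806 to 1465 against 573 to 1208) overlap in their ranges over libraries, whereas Hvcn1 (326 to 566) and Cybb (36.6 to 243) do not. Cybb was thus the least abundant of the 8 in these libraries. In the 4 libraries Cybb was second, at a median of 4971 per kb, behind Cyba at 24274. Its range there, 2655 to 5989, overlaps those of Rac1 (3341 to 4124), Rac2 (2106 to 3758) and Ncf1 (2184 to 3481). In TASTPM K/BxN ST replicate 2, Cybb (2655) lay below Ncf1 (3481), Rac1 (3341) and Rac2 (2746).

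**Figure D4:**
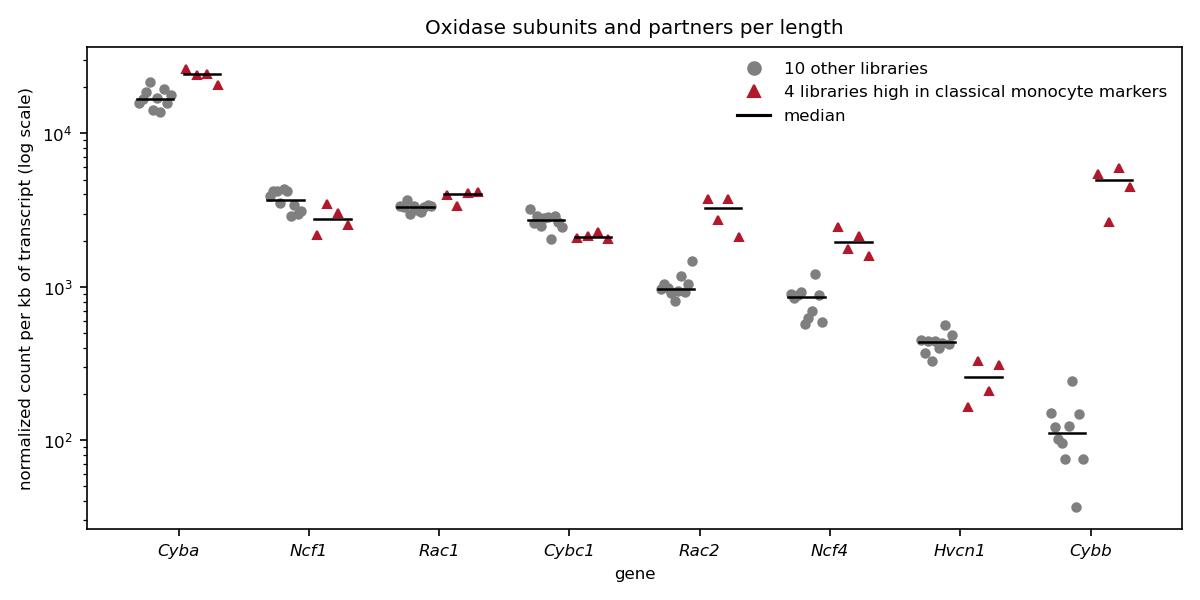
Normalized counts per kb of canonical transcript (vertical axis, log scale) of 8 oxidase genes (horizontal axis) in the 10 other libraries (circles) and the 4 libraries high in classical monocyte markers (triangles), with medians as lines. Cybb goes from the lowest median of the 8, 112, to the second, 4971, while Cyba leads in both.

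The ratio of subunits within a library also differed between the 4 and the 10, as a description. Cybb per Cyba, on the per-kb scale, was 0.110 to 0.246 in the 4 libraries and 0.00188 to 0.0175 in the 10. Rac2 per Rac1 was 0.511 to 0.943 against 0.241 to 0.435. Hvcn1 per Cybb was 0.0303 to 0.124 against 1.77 to 15.4.

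The 3 tested genes whose log2 pattern over the 14 libraries was most like each member were found by Pearson r, as a description in which all genes of a library share its depth and its cells. For Cybb they were Ly6c2 (r = 0.977), Ifitm3 (0.973) and Emb (0.970), and within the 10 other libraries these r were 0.533, 0.506 and 0.0713. For Rac2 they were Arpc1b (0.979), Pkm and Cnn2, for Ncf4 Tspo (0.967), Ap1s2 and Myl12a, and for Cyba Scp2 (0.968), Cox6a1 and Rpl10a. Those of Hvcn1 were Ptgs1 (0.972), Itm2c and Trim32, and those of Ncf1 were Cep152 (0.892), Nars and Tpst2. Within the 10 libraries, the r of the 3 genes ran from 0.889 to 0.933 for Cyba, 0.693 to 0.902 for Ncf1, 0.803 to 0.871 for Hvcn1, 0.784 to 0.914 for Ncf4 and 0.491 to 0.852 for Rac2.

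Of 16 receptors and signaling genes that start the oxidase, 14 were tested and limma, edgeR and DESeq2 called 0 for K/BxN ST in either genotype. Over all genes limma called 0.00791% in WT and 0.00% in TASTPM, edgeR 0.00% in both, and DESeq2 1.00% and 0.142%. At an unadjusted p below 0.05, 0 of the 14 passed in either genotype, against 7.13% of all genes in WT and 4.22% in TASTPM. In WT 8 of 14 differences were positive (54.0% of all genes were) and in TASTPM 10 of 14 (50.4% of all genes). Clec7a, the beta-glucan receptor Dectin-1, had the largest difference named, 0.89 in WT (SE 0.56, limma adjusted p = 0.758). Of the 14, 2 (Clec7a and Arhgdib) were higher in all 4 libraries high in monocyte markers than in the other 10, as were 7.63% of all genes, and 1 (Pik3cg, a lipid kinase subunit) was lower, as were 2.51%. Clec7a was at 5656 to 6512 against 977 to 3741, and Pik3cg at 1772 to 2898 against 2903 to 5231. Vav1, an exchange factor for Rac, differed by -0.34 in WT (SE 0.20). In TASTPM, Prkcb, a kinase that phosphorylates p47phox, differed by 0.36 (SE 0.20) and Itgb2, the beta chain of CD11b/CD18, by 0.32 (SE 0.18). The formyl peptide receptors Fpr1 and Fpr2, which trigger the burst in neutrophils and monocytes, failed the filter. Fpr1 was at 578, 677, 1097 and 62.9 in the 4 libraries, lowest in WT K/BxN ST library 2, and at most 22.2 in the 10.

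Of 7 transcription factors known to act on oxidase genes, all were tested and none was called by limma, edgeR or DESeq2, of which DESeq2 called 1.00% of all genes in WT and 0.142% in TASTPM. At an unadjusted p below 0.05, 1 of the 7 passed in each genotype, where 7.13% of all genes did in WT and 4.22% in TASTPM. That 1 was Cebpb, which takes part in myeloid inflammatory programs. WT libraries held 4743, 3312, 2150 and 1630 with K/BxN ST, against 1540, 1252 and 796 with Control ST, so that every K/BxN ST library exceeded every Control ST library, as in 3.67% of the genes tested. In TASTPM the groups overlapped, with 8068, 4344, 3945 and 2511 after K/BxN ST and 1269, 3213 and 2758 after Control ST. The difference of Cebpb was 1.24 in WT (SE 0.44, unadjusted p = 0.0128, limma adjusted p = 0.629) and 0.95 in TASTPM (SE 0.44, limma adjusted p = 0.964), and 0.70 (SE 0.41) and 0.49 (SE 0.41) with the 10 libraries. Irf8, a factor of the monocyte and microglia lineage, differed by -0.50 in WT (SE 0.27) and Irf1, an interferon response factor, by 0.38 in TASTPM (SE 0.22). Spi1, which encodes PU.1, differed by 0.16 and 0.21, and in the 4 libraries (8277 to 10673) it lay just above the 10 (5949 to 8244), as did 7.63% of all genes, while the other 6 factors overlapped.

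Genes that supply NADPH or remove superoxide and peroxide were tested for 10 of 13. All 10 had positive differences in both genotypes, as did 54.0% of all genes in WT and 50.4% in TASTPM, with medians of 0.69 and 0.55. None was called by limma, edgeR or DESeq2, which called 0.00791%, 0.00% and 1.00% of all genes in WT and 0.00%, 0.00% and 0.142% in TASTPM. At an unadjusted p below 0.05, 1 passed in WT, against 7.13% of all genes, and 0 in TASTPM, against 4.22%. With the 10 libraries the medians were -0.05 and -0.14. Of the 10 genes, 9 were higher in every library with high monocyte markers than in any other, as were 7.63% of all genes tested. Gpx1, a glutathione peroxidase, was at 18655 to 34579 in the 4 libraries and 4877 to 11703 in the 10, and differed by 1.32 in WT (SE 0.61, unadjusted p = 0.0483, limma adjusted p = 0.698). Cat, encoding catalase, was the exception and overlapped, with differences of 0.41 in WT (SE 0.21) and 0.38 in TASTPM (SE 0.21). Pgd, an NADPH-producing enzyme of the pentose phosphate pathway, differed by 0.59 in TASTPM (SE 0.38).

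**Figure D5:**
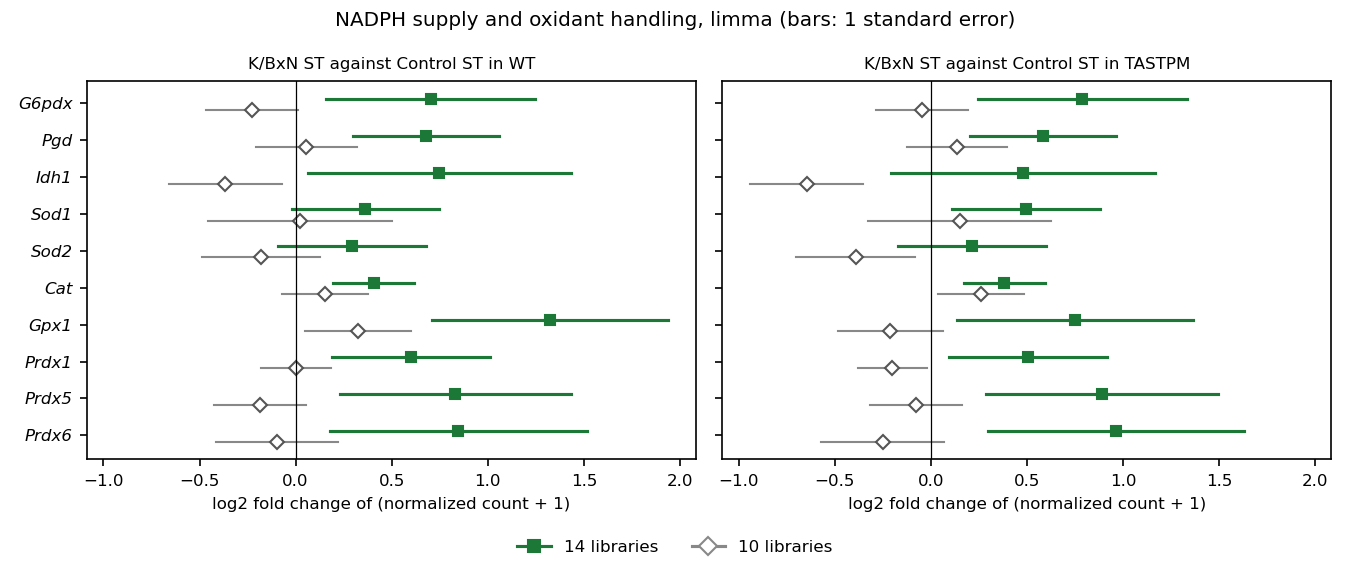
Log2 fold change of (normalized count + 1) for K/BxN ST against Control ST (horizontal axis) of 10 genes of NADPH supply and oxidant handling (vertical axis) in WT (left) and TASTPM (right), with bars of 1 standard error. Squares (14 libraries) lie right of 0 for all 10 genes, with medians of 0.69 and 0.55, and diamonds (10 libraries) have medians of -0.05 and -0.14.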

How the data were processed

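RNA-seq libraries were assigned to groups by the group named above each column of the deposited values. For TASTPM K/BxN ST, replicate numbers are those of the labels, and libraries of other groups are numbered in column order. The authors amplified cDNA with SMART-Seq v4, aligned reads with HISAT2 2.1 to GRCm39 and counted them with featureCounts 1.5.2 on Ensembl release 104. Deposited is a normalized signal that the authors made by dividing the reads of a gene by 1 factor per library, and whole reads were recovered for 100% of values within a tolerance of 0.01. Of 14336 entries, 7 repeats were left out.

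log2(normalized count + 1) was fitted with limma 3.58.1 (R 4.3.3) in 1 fit of 4 groups, with the prior variance following a trend. edgeR 4.0.16 and DESeq2 1.42.0 were run on the recovered reads. No sample columns were left unused. Libraries were set apart where the summed classical monocyte markers exceeded 10 times the highest Control ST library. Named genes were the 6 members, other listed oxidase genes, and, from 3 further lists, the called genes and the 2 with the smallest p in each genotype for K/BxN ST, with the 3 genes most like each member. Fpr1, Fpr2, Arhgdib, Pik3cg, Spi1 and the marker genes printed were named after their values were seen. The members and lists were chosen with earlier results of these data known. Some listed items are not reported here and were left out of the lists. Positions are from GENCODE release M39 and promoters from RefSeq.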

Additional observations from a re-analysis of the deposited data

How the results depend on the processing

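No member was called in any comparison by limma or edgeR, by another scaling or pseudocount, or without any 1 library, and DESeq2 called 1, Cybb in WT (4.98). Over all genes, limma called 1 for K/BxN ST in WT, 0 with a pseudocount of 10, edgeR, only the groups compared or the 10 libraries, 127 with DESeq2, and 0 to 17 when 1 library was left out (17 without WT Control ST library 3). The other counts were 0, and DESeq2 called 18 in TASTPM, 12 for the interaction and 41 for TASTPM against WT under Control ST, where the 10 libraries gave 1. With 1 library left out they ran from 0 to 1, 0 to 3 and 0 to 11. Directions turned for Ncf1 in WT with library totals (0.028) and edgeR (0.0065). Without the 4 libraries they turned in WT for Cyba (-0.19), Ncf1 (0.14), Ncf4 (-0.38) and Rac2 (-0.092), in TASTPM for Cyba (-0.13), Ncf1 (0.010) and Hvcn1 (0.036), and between genotypes under K/BxN ST for Rac2 (-0.066). With 1 library left out, values that turned ran in WT from -0.050 to 0.22 (Cyba) and -0.18 to 0.071 (Ncf1), for the interaction from -1.66 to 0.20 (Cybb) and -0.063 to 0.24 (Cyba), for TASTPM against WT under Control ST from -0.23 to 0.77 (Cybb), -0.12 to 0.19 (Cyba) and -0.42 to 0.099 (Ncf4), and under K/BxN ST from -1.38 to 0.48 (Cybb), -0.016 to 0.25 (Cyba), -0.0085 to 0.30 (Ncf1), -0.0054 to 0.60 (Ncf4), -0.29 to 0.44 (Rac2) and -0.29 to 0.23 (Hvcn1). The other serum differences kept their sign without any 1 library but moved in WT over 2.79 to 4.65 (Cybb), 0.047 to 0.64 (Ncf4), 0.24 to 0.90 (Rac2) and -0.72 to -0.37 (Hvcn1), each smallest in size without K/BxN ST library 1. In TASTPM they moved over 2.02 to 3.84 (Cybb), 0.017 to 0.32 (Cyba, smallest without Control ST library 3), -0.38 to -0.062 (Ncf1), 0.51 to 1.02 (Ncf4), 0.65 to 1.31 (Rac2) and -0.55 to -0.069 (Hvcn1), the rest smallest without K/BxN ST replicate 1. The cause was not tested.

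No paired analysis was possible because the groups share no replicate numbers. Each member had at least 186 reads in every library, and the part of depth in the standard errors was not tested.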
